A study of Mus musculus with 6 samples.

Results

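The mitochondrial fatty acid beta-oxidation enzymes examined here are 10 genes chosen by name, *Acadvl*, *Acadl*, *Acadm*, *Acads*, *Hadha*, *Hadhb*, *Hadh*, *Acaa2*, *Eci1*, and *Decr1*, out of 55491 genes in the deposited table. All 10 were among the 32664 genes that had at least 1 count in any library and were tested, and each had at least 8969 counts in every library. The data are bulk RNA-seq of inguinal white adipose tissue (IWAT), a subcutaneous fat depot of the groin, from 4-week-old male mice on the C57BL/6J strain, with 1 library per mouse. One group was 3 *Ebf2*+/+ (WT) mice and the other was 3 *Ebf2* E165X/+ mice, which carry 1 copy of a nonsense allele of *Ebf2*, a transcription factor of adipocyte development. The allele was introduced by CRISPR/Cas9 into the germline, so every cell of the heterozygous mice carries it. *P* values set the difference between genotypes against the spread between mice of a genotype. They treat the 6 mice as independent, which could not be checked because the litters are not given in the sources used here.

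Beta-oxidation takes place in the mitochondrial matrix, where a fatty acid bound to coenzyme A is shortened by a repeated cycle of dehydrogenation, hydration, a further dehydrogenation, and thiolytic cleavage that releases acetyl-CoA. The acyl-CoA dehydrogenases of the first step differ in the chain length they prefer, the membrane-bound trifunctional protein carries out the later steps for long chains, and separate soluble enzymes do so for shorter chains. White adipocytes mainly store fatty acids, whereas brown and beige adipocytes oxidize them at a high rate to produce heat.

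The genes lie at separate places in the genome, apart from *Hadha* and *Hadhb*, the subunits of the trifunctional protein. *Hadha* and *Hadhb* are transcribed away from each other, with 85 bases between their starts in the GENCODE M21 annotation. That shared stretch is shown because it lies upstream of both genes. Short stretches upstream of *Acadm* and *Acadvl* are shown because, of the 8 enzyme promoters searched, these held the nuclear receptor motif AGGTCA. Sequences are from RefSeq (GRCm38.p6), 5′ to 3′. Capitals mark GC boxes (GGGCGG) in the first sequence and AGGTCA, or its reverse complement, in the others.
*Hadha* and *Hadhb*, chr5:30155163-30155247, + strand: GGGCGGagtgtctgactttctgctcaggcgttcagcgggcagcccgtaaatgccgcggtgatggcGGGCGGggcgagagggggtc
*Acadm*, chr3:153944834-153944893, − strand: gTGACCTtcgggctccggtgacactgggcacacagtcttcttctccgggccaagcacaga
*Acadvl*, chr11:70015479-70015538, − strand: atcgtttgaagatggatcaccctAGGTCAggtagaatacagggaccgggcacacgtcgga

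Promoter windows reaching from 250 bases before to 50 bases after the RefSeq start were found for 8 of the 10 enzyme genes, the exceptions being *Decr1* and *Acaa2*, and both strands were searched. AGGTCA was found in 2 of these 8 windows and in 16.3% of 32851 windows of the same length. It began 249 bases before the start of *Acadm* and 87 bases before the start of *Acadvl*. The GC box GGGCGG was found in 6 of 8 windows, those of *Acadl*, *Acads*, *Hadha*, *Hadhb*, *Hadh*, and *Eci1*, and in 35.7% of all windows. The RefSeq starts of *Hadha* and *Hadhb* used for the windows differ from their GENCODE M21 starts. The estrogen-related receptor element TCAAGGTCA, which contains AGGTCA, was in 0.423% of all windows, a direct repeat of AGGTCA with 1 base between the copies in 0.0396%, and the EBF palindrome TCCCNNGGGA in 0.904%. None of these 3 letter patterns was found in the 8 windows.

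Library totals ran from 106820505 to 135039488 counts and overlapped between the genotypes. With at least 8969 counts for each enzyme gene in every library, counting error was small for these genes. Levels are given as CPM, counts scaled to the size of the library after TMM scaling. *Ebf2* itself was measured at 38.3, 41.3, and 37.2 CPM in the WT mice and at 22.8, 22.9, and 21.1 CPM in *Ebf2* E165X/+ mice. Every heterozygous mouse was below every WT mouse, with a log2 fold change of −0.81 (SE 0.076; adjusted *P* = 0.0596 with the quasi-likelihood test of edgeR and 1.37e-13 with DESeq2). Adipocyte markers were abundant in every library, with *Adipoq*, the gene of adiponectin, at 1231 CPM in WT mice and 1015 CPM in *Ebf2* E165X/+ mice on average.

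The library of *Ebf2* E165X/+ mouse 3 stood apart from the others. Its 8 skeletal muscle markers summed to 39015 CPM, against 2801 and 661 CPM in the other *Ebf2* E165X/+ mice and 1634, 6768, and 2586 CPM in WT mice. All 8 markers were higher on average in *Ebf2* E165X/+ mice, 0 of 8 with an unadjusted edgeR *P* under 0.05, and none was at 0. The highest CPM among them in WT mice was that of *Myh4*, a fast myosin heavy chain. The log2 fold changes ran from 1.75 for *Myh4* and 1.81 for *Myh1* to 2.12 for *Actn3* and 2.13 for *Acta1*, genes of the contractile apparatus of skeletal muscle. The same library had the lowest sum of 8 adipocyte markers, at 11574 CPM, against 18291 and 15820 CPM in the other *Ebf2* E165X/+ mice and 18547, 19661, and 17296 CPM in WT mice. Muscle fibers also use beta-oxidation enzymes, and the part of muscle RNA in the levels below was not tested, so the range of the enzymes and the median of each list are also given without this mouse.

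All 10 beta-oxidation enzymes had lower transcript levels in *Ebf2* E165X/+ IWAT, where every mouse was below every WT mouse for each of them. The mean level in *Ebf2* E165X/+ mice ranged from 50.9% of the WT mean for *Acaa2* to 71.8% for *Acads*. Of the 18905 genes that reached 10 counts in all 6 libraries, 6.78% were lower without overlap. The median log2 fold change over the 10 enzymes was −0.68, beside 0.014 over all genes tested. In whole tissue, fewer cells of a type and less RNA per cell cannot be told apart.

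**Figure D1:**
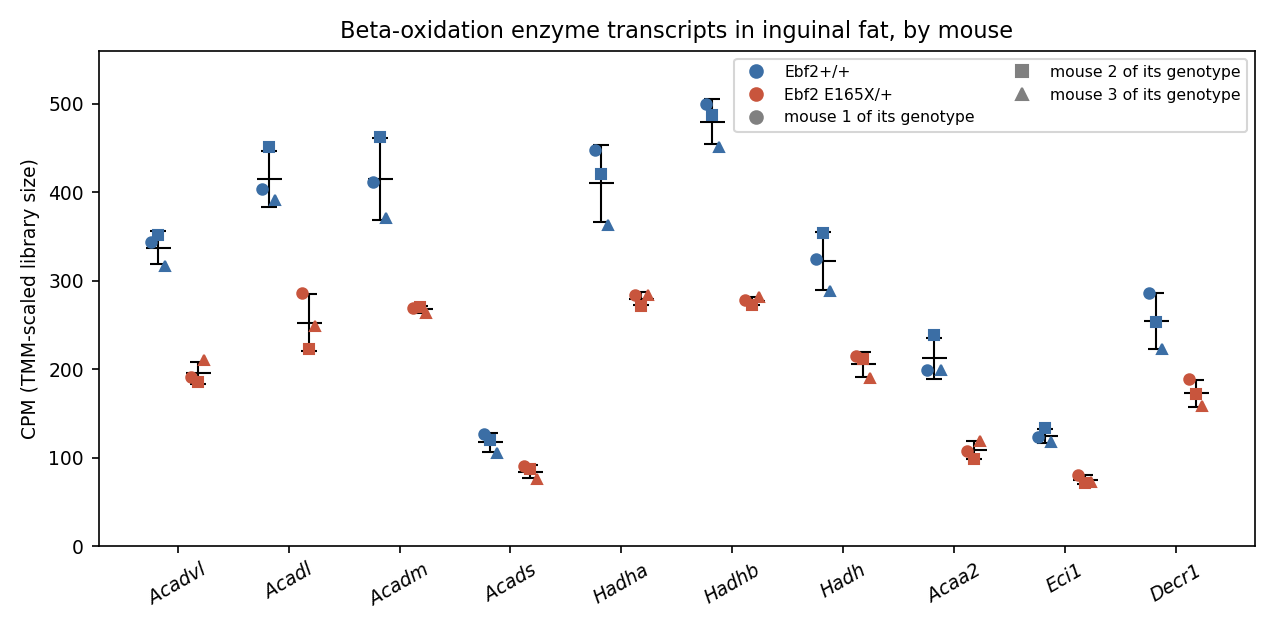
CPM (TMM-scaled) of the 10 beta-oxidation enzyme genes in each mouse, with blue for *Ebf2*+/+ and red for *Ebf2* E165X/+, the shape giving the mouse number, long bars the mean, and whiskers the SD over 3 mice. For every gene the 3 red points lie below the 3 blue points, and the gap is widest relative to the level for *Acaa2*.

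How the differences passed a test depended on the tool. With edgeR, 0 of the 10 enzymes had an adjusted *P* under 0.05, where 0.00918% of all tested genes did, namely *Cidea*, lower, and the predicted genes *Gm3375* and *Gm5503*, higher. All 10 enzymes had an unadjusted edgeR *P* under 0.05, from 3.28e-05 to 0.00201, in the lower direction, as 3.09% of all tested genes did. Ordered by *P* over all 32664 genes, *Eci1* ranked 8, *Acaa2* 9, *Hadhb* 12, and *Acadvl* 13, while *Decr1* ranked 104. With DESeq2, the tool used in the study, all 10 enzymes had an adjusted *P* under 0.05, from 8.25e-18 for *Hadhb* to 0.00888 for *Acads*, whereas 0.942% of genes with an adjusted *P* were called lower. Of these 10, 7 also had a linear fold change above 1.5, as 0.474% of those genes did in the lower direction. Without *Ebf2* E165X/+ mouse 3, edgeR called 0 enzymes, and all 10 had an unadjusted *P* under 0.05, as 1711 of 32108 genes did in either direction. The log2 fold changes of the enzymes then ran from −1.04 for *Acaa2* to −0.41 for *Acads*. With limma-voom, 1 enzyme passed, *Hadhb* with an adjusted *P* of 0.0387, among 4 genes in all.

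The acyl-CoA dehydrogenases catalyze the first step of each cycle and pass electrons to the electron transfer flavoprotein. *Acadvl* (ENSMUSG00000018574, chr11:70010183-70015411 on GRCm38), which encodes the very long-chain enzyme of the inner membrane, was measured at 344, 352, and 316 CPM in WT mice and at 191, 186, and 210 CPM in *Ebf2* E165X/+ mice. The means were 337 ± 18.7 and 195 ± 12.8 CPM (SD, *n* = 3 each), without overlap of the mice. The log2 fold change was −0.79 (SE 0.097; edgeR adjusted *P* = 0.135, DESeq2 adjusted *P* = 1.12e-12), and it was −0.84 without *Ebf2* E165X/+ mouse 3. *Acadl* (ENSMUSG00000026003, chr1:66830839-66863277), the long-chain enzyme, was measured at 404, 451, and 391 CPM in WT mice against 287, 223, and 249 CPM. It was the enzyme gene with the widest spread among *Ebf2* E165X/+ mice, with an SD of 0.18 on the log2 scale, and its log2 fold change was −0.72 (SE 0.125; edgeR adjusted *P* = 0.377, DESeq2 adjusted *P* = 8.94e-06).

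*Acadm* (ENSMUSG00000062908, chr3:153922357-153944632), the medium-chain enzyme, was measured at 412, 463, and 371 CPM in WT mice and at 269, 270, and 264 CPM in *Ebf2* E165X/+ mice. The *Ebf2* E165X/+ mice had an SD of 3.43 CPM, whereas the WT mice had an SD of 46.3 CPM. Its log2 fold change was −0.63 (SE 0.111; edgeR adjusted *P* = 0.377, DESeq2 adjusted *P* = 5.44e-06). *Acads* (ENSMUSG00000029545, chr5:115110299-115119346), the short-chain enzyme, was measured at 127, 120, and 105 CPM against 90.1, 86.6, and 75.8 CPM. It had the smallest difference of the 10 genes, with a log2 fold change of −0.48 (SE 0.102; edgeR adjusted *P* = 0.617), and −0.41 without *Ebf2* E165X/+ mouse 3. The 4 log2 fold changes were thus ordered by chain length, from *Acadvl* to *Acads*, but the ratio of *Acadvl* to *Acads* counts within a library overlapped between the genotypes, at 2.72, 2.93, and 3.01 in WT mice and 2.12, 2.15, and 2.77 in *Ebf2* E165X/+ mice. The mouse that overlapped was *Ebf2* E165X/+ mouse 3.

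The trifunctional protein joins an alpha subunit with hydratase and hydroxyacyl-CoA dehydrogenase activity, encoded by *Hadha*, to a beta subunit with thiolase activity, encoded by *Hadhb*. *Hadha* (ENSMUSG00000025745, chr5:30118304-30155162) was measured at 448, 420, and 363 CPM in WT mice and at 284, 271, and 284 CPM in *Ebf2* E165X/+ mice. Its log2 fold change was −0.55 (SE 0.110; edgeR adjusted *P* = 0.497, DESeq2 adjusted *P* = 0.000127). *Hadhb* (ENSMUSG00000059447, chr5:30155248-30184593) had the highest CPM of the 10 genes in WT mice, at 500, 488, and 451 CPM, and was measured at 278, 273, and 281 CPM in *Ebf2* E165X/+ mice. The *Ebf2* E165X/+ values had an SD of 4.46 CPM, and the log2 fold change was −0.79 (SE 0.096; edgeR adjusted *P* = 0.135). *Hadhb* has a near-identical processed pseudogene, *Hadhb-ps*, identical at 99.8% of 1428 aligned bases, between which reads cannot be placed with certainty. *Hadhb-ps* held 1009, 868, and 878 counts in WT mice and 539, 599, and 502 counts in *Ebf2* E165X/+ mice, against at least 32199 for *Hadhb*, and summing *Hadhb* with this and a further copy left the log2 fold change at −0.79.

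*Hadha* and *Hadhb*, whose GENCODE M21 starts are separated by the stretch printed above, were also compared with each other. The number of *Hadha* counts per *Hadhb* count was 0.896, 0.862, and 0.804 in WT mice and 1.02, 0.994, and 1.01 in *Ebf2* E165X/+ mice. The ratio was thus higher in every *Ebf2* E165X/+ mouse, by 0.24 on the log2 scale, since *Hadhb* was lower by more than *Hadha*. This ratio is taken within a library, so that scaling between libraries does not enter it.

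The soluble enzymes of the later steps act on medium and short chains. *Hadh* (ENSMUSG00000027984, chr3:131233419-131272101), the hydroxyacyl-CoA dehydrogenase for these chains, was measured at 325, 354, and 289 CPM in WT mice and at 214, 212, and 189 CPM in *Ebf2* E165X/+ mice. Its log2 fold change was −0.65 (SE 0.110; edgeR adjusted *P* = 0.377, DESeq2 adjusted *P* = 8.69e-06). *Acaa2* (ENSMUSG00000036880, chr18:74779197-74806208), the thiolase that cleaves off acetyl-CoA, had the largest difference of the 10 genes. It was measured at 199, 239, and 199 CPM in WT mice and at 108, 98.4, and 119 CPM in *Ebf2* E165X/+ mice. The log2 fold change of *Acaa2* was −0.97 (SE 0.112; edgeR adjusted *P* = 0.119, DESeq2 adjusted *P* = 1.52e-11), and −1.04 without *Ebf2* E165X/+ mouse 3 (edgeR adjusted *P* = 0.0609).

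The auxiliary enzymes move or remove the double bonds of unsaturated fatty acids so that these can enter the cycle. *Eci1* (ENSMUSG00000024132, chr17:24426641-24439348), an enoyl-CoA isomerase, was measured at 123, 133, and 118 CPM in WT mice and at 80.5, 71.8, and 72.6 CPM in *Ebf2* E165X/+ mice. Its log2 fold change of −0.74 had the smallest SE of the 10 genes (0.084; edgeR adjusted *P* = 0.119, DESeq2 adjusted *P* = 3.80e-10). *Decr1* (ENSMUSG00000028223, chr4:15917240-15945507), a dienoyl-CoA reductase, was measured at 286, 254, and 223 CPM in WT mice against 189, 172, and 158 CPM. It had the highest edgeR adjusted *P* of the 10, at 0.625, with a log2 fold change of −0.56 (SE 0.120; DESeq2 adjusted *P* = 0.00301).

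The mice of a genotype were also compared over all enzymes. On a log2 scale centered on the WT mean of each gene, the mean over the 10 enzymes was 0.039, 0.087, and −0.13 in WT mice and −0.63, −0.73, and −0.70 in *Ebf2* E165X/+ mice. WT mouse 3 had the lowest WT value for all 10 genes. Among *Ebf2* E165X/+ mice no single mouse was lowest throughout, as mouse 2 was lowest for 6 genes and mouse 3 for 4. Leaving out any 1 of the 6 mice kept the log2 fold change of every enzyme between −1.04 and −0.41, and the median over the enzymes without *Ebf2* E165X/+ mouse 3 was −0.66.

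Among the 45 pairs of enzymes, the ratio of counts within a library did not overlap between the genotypes for 11 pairs, of which *Acads* and *Acaa2* were each in 5 and *Hadha* in 3. Over all 178690060 pairs of the 18905 genes, 12.9% did not overlap. *Acads* counts per *Acaa2* count were 0.635, 0.502, and 0.529 in WT mice and 0.837, 0.880, and 0.639 in *Ebf2* E165X/+ mice, the largest shift of any pair that did not overlap, at 0.49 on the log2 scale. The value for *Ebf2* E165X/+ mouse 3 lay just above the highest WT value. *Acads* counts per *Hadhb* count were 0.253, 0.246, and 0.233 against 0.324, 0.317, and 0.269. In the other 34 pairs the mice of the genotypes overlapped, as for *Acadvl* and *Hadhb*, whose ratio was 0.688, 0.721, and 0.701 in WT mice and 0.685, 0.681, and 0.746 in *Ebf2* E165X/+ mice.

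**Figure D2:**
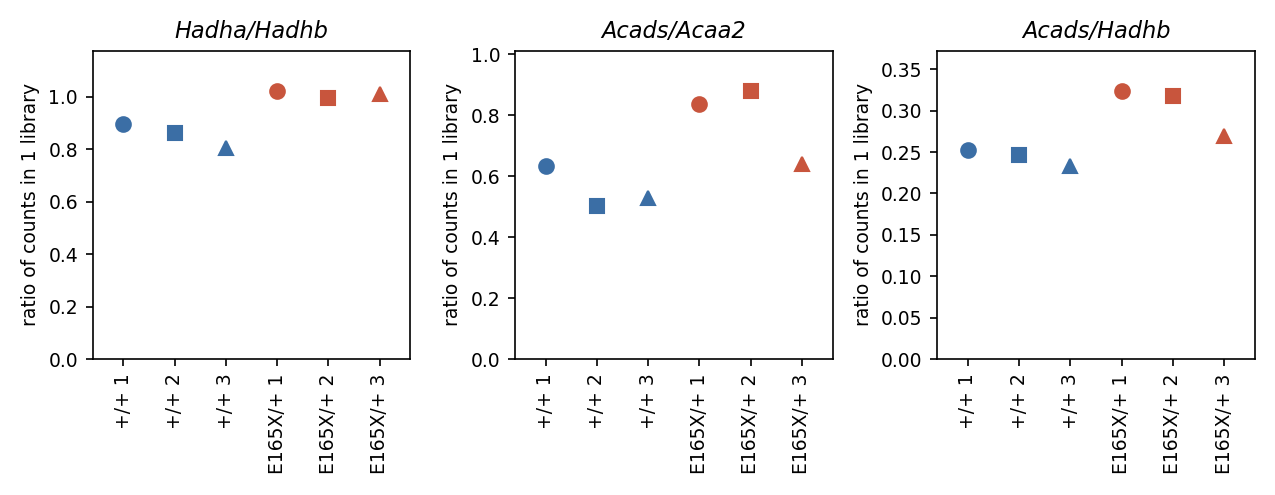
Ratio of the counts of 2 enzyme genes within each library, for *Hadha* over *Hadhb*, *Acads* over *Acaa2*, and *Acads* over *Hadhb*, with 1 point per mouse, blue for *Ebf2*+/+ and red for *Ebf2* E165X/+. All red points lie above all blue points in each panel, and mouse 3 of *Ebf2* E165X/+ lies closest to the blue points in the panels with *Acads*.

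Per kilobase of the longest protein-coding transcript, *Hadhb* was the most abundant enzyme transcript in WT mice, at 234 ± 12.4 CPM per kilobase, and *Acads* the least, at 62.7 ± 5.86 (SD, *n* = 3 each). *Acadl* (217 ± 16.5), *Acadm* (203 ± 22.6), *Hadh* (180 ± 18.3), *Acadvl* (156 ± 8.63), and *Acaa2* (140 ± 15.2) followed *Hadhb* in that order, each overlapping with the next within their SDs. A gap beyond the SDs separated *Acaa2* from *Eci1* (110 ± 6.98), which overlapped with *Hadha* (102 ± 10.8), as *Hadha* did with *Decr1* (85.8 ± 10.7). *Acads* lay below *Decr1* by more than their SDs. The order in *Ebf2* E165X/+ mice was the same except that *Hadha* and *Eci1* exchanged places. These values assume counts that grow with transcript length. If the libraries were 3′ libraries, as the supplement of the paper states and the sample labels do not, the unscaled CPM give the order, in which *Hadha* ranks 4 rather than 8.

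The genes around the 10 enzymes were examined in lists, chosen by function and counted in full. The other mitochondrial oxidation enzymes and electron acceptors were all lower, 12 of 12, with a median log2 fold change of −0.43. Of these 12, 10 had an unadjusted edgeR *P* under 0.05 and 5 an adjusted DESeq2 *P* under 0.05, while 0 passed edgeR after adjustment. The 5 were *Echs1*, a hydratase of shorter chains, *Hsd17b10*, a dehydrogenase of branched-chain breakdown, and *Etfa*, *Etfb*, and *Etfdh*, which carry electrons from the dehydrogenases to the respiratory chain. *Etfb*, a subunit of the electron transfer flavoprotein, was at 65.9% of its WT level in *Ebf2* E165X/+ mice, a log2 fold change of −0.60, and *Etfdh*, which passes the electrons on to ubiquinone, had −0.58. At the other end were *Acad9*, an assembly factor of complex I, at −0.15 and *Acadsb*, a dehydrogenase of isoleucine breakdown, at −0.21, for both of which the genotypes overlapped. Without *Ebf2* E165X/+ mouse 3, 12 of 12 were lower, 9 with an unadjusted *P* under 0.05, and the median was −0.33.

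The carnitine shuttle, which brings long-chain fatty acids into the mitochondrion, was mixed. Of 7 genes, 5 were lower and 2 higher, 3 and 1 of them with an unadjusted edgeR *P* under 0.05, and the median was −0.38. *Slc25a20*, the carnitine-acylcarnitine carrier of the inner membrane, was measured at 95.7, 98.7, and 91.9 CPM in WT mice and at 65.7, 57.9, and 61.1 CPM in *Ebf2* E165X/+ mice. Its log2 fold change was −0.63 (SE 0.075; edgeR adjusted *P* = 0.129, DESeq2 adjusted *P* = 1.00e-08). In contrast, *Cpt1a*, the carnitine palmitoyltransferase of the outer membrane in most tissues, was higher in every *Ebf2* E165X/+ mouse, at 115, 105, and 94.1 CPM against 80.4, 84.1, and 86.8 CPM. The log2 fold change of *Cpt1a* was 0.32 (edgeR adjusted *P* = 0.783, DESeq2 adjusted *P* = 0.201).

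*Cpt1b*, the isoform of muscle and brown fat, was the least even gene of the shuttle. It was measured at 29.2, 46.9, and 42.5 CPM in WT mice but at 8.16, 4.92, and 71.6 CPM in *Ebf2* E165X/+ mice. The high value was that of mouse 3, the library with the muscle markers, and the other *Ebf2* E165X/+ mice were below every WT mouse. With mouse 3 included the log2 fold change of *Cpt1b* was −0.48 (SE 0.885; edgeR adjusted *P* = 0.901), and without it −2.60 (SE 0.272; edgeR adjusted *P* = 0.0469), the only gene of the shuttle called by edgeR with or without it. *Cpt1c*, the isoform known from neurons, had a log2 fold change of 0.17 at a level of 6.62 CPM in WT mice. Without mouse 3 the shuttle still had 5 genes lower and 2 higher, with 4 and 1 below an unadjusted *P* of 0.05, the median was −0.38, and *Cpt1a* was at 0.39.

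The propionyl-CoA pathway, which takes up the last fragment of odd-chain fatty acids, was lower for 6 of 6 genes, 5 with an unadjusted edgeR *P* under 0.05, 2 called by DESeq2 (*Pccb* and *Mmaa*), and a median of −0.34. *Pcca* and *Pccb*, the subunits of propionyl-CoA carboxylase, had log2 fold changes of −0.46 and −0.45. *Mcee* and *Mmab*, an epimerase and a cobalamin enzyme of the same route, had −0.34 and −0.27. In edgeR without *Ebf2* E165X/+ mouse 3, 6 of 6 were lower, 5 with an unadjusted *P* under 0.05, and the median was −0.35.

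Peroxisomes carry out a beta-oxidation of their own for very long chains. Of 15 genes of that route, 14 were lower, 7 with an unadjusted edgeR *P* under 0.05 and 2 called by DESeq2 (*Ech1* and *Abcd3*), with a median of −0.28. *Ehhadh*, the peroxisomal bifunctional enzyme, was at −0.69 and *Acaa1b*, a peroxisomal thiolase, at −0.62. *Acox3*, an acyl-CoA oxidase, was at −0.04, with overlapping genotypes. Without *Ebf2* E165X/+ mouse 3, 13 of the 15 were lower, 5 with an unadjusted *P* under 0.05, and the median was −0.20.

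Genes that regulate beta-oxidation were lower for 9 of 10, with a median of −0.34, a count that includes *Ebf2* itself. Of the 10, 7 had an unadjusted edgeR *P* under 0.05 in the lower direction and DESeq2 called 4, *Ppara*, *Acacb*, *Sirt3*, and *Ebf2*. *Ppara*, a nuclear receptor that activates beta-oxidation genes, was measured at 10.9, 15.8, and 20.2 CPM in WT mice and at 4.39, 6.52, and 6.11 CPM in *Ebf2* E165X/+ mice, with a log2 fold change of −1.46 (SE 0.249; edgeR adjusted *P* = 0.377, DESeq2 adjusted *P* = 7.07e-07). *Acacb*, whose product malonyl-CoA inhibits carnitine palmitoyltransferase, was measured at 371, 252, and 309 CPM against 142, 134, and 176 CPM, with a log2 fold change of −1.05. Both a gene that activates the pathway and a gene that restrains it were thus lower in every *Ebf2* E165X/+ mouse. *Ppard* and *Esrrg*, further nuclear receptors, were at 0.06 and −0.05 with overlapping genotypes. *Esrrg* was measured at 3.50, 5.35, and 6.37 CPM in WT mice and at 2.91, 2.75, and 9.02 CPM in *Ebf2* E165X/+ mice, and without mouse 3 its log2 fold change was −0.84 (edgeR adjusted *P* = 0.787). Without *Ebf2* E165X/+ mouse 3, 8 had an unadjusted *P* under 0.05, the median was −0.46, and edgeR called *Ebf2*.

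**Figure D3:**
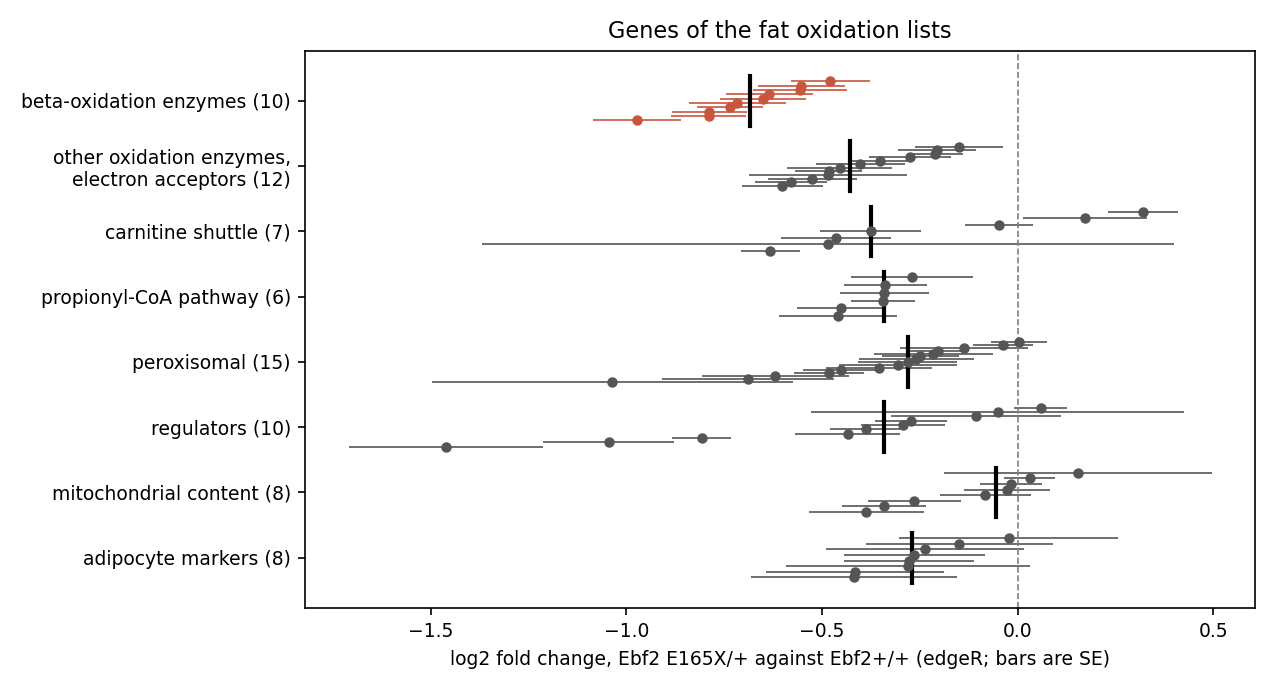
Log2 fold change of each gene (edgeR, *Ebf2* E165X/+ against *Ebf2*+/+, 3 mice each; horizontal bars are SE), by list, with the number of genes in parentheses and a vertical bar at the median of the list. The 10 beta-oxidation enzymes, in red, lie between −0.97 and −0.48 around a median of −0.68, while the median of the mitochondrial content genes lies at −0.06.

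Genes that reflect mitochondrial content in general were counted in the same way. Of 8 such genes, 6 were lower, 2 with an unadjusted edgeR *P* under 0.05 and 0 called by DESeq2 or edgeR, with a median of −0.06. *Cs*, citrate synthase, was at −0.39 and *Hspd1*, a matrix chaperone, at −0.34. *Polg*, the mitochondrial DNA polymerase, was at 0.03 and *Vdac1*, a channel of the outer membrane, at 0.15. The *Vdac1* value rested on *Ebf2* E165X/+ mouse 3, with 435 CPM against 185 and 170 CPM in the others of its genotype and 237 ± 22.9 CPM in WT mice (SD, *n* = 3). Without that mouse *Vdac1* was at −0.42, 7 of 8 genes were lower, 4 with an unadjusted *P* under 0.05, and the median was −0.23, so that the position of this list depended on the library with the muscle markers. As a percentage of the summed CPM of these 8 genes, the 10 enzymes amounted to 172, 192, and 179 in WT mice and 149, 140, and 107 in *Ebf2* E165X/+ mice, without overlap, and 9 of the 10 enzymes taken singly did not overlap either, *Acads* being the exception. On that scale 1.03% of the 18905 genes were lower without overlap.

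The adipocyte markers bear on how much of each library came from fat cells. All 8 were lower on average, 0 of 8 with an unadjusted edgeR *P* under 0.05, with a median log2 fold change of −0.27 and none at 0. When *Ebf2* E165X/+ mouse 3 was left out, 6 of 8 were lower and the median was −0.13. *Lpl* and *Fabp4* had the highest CPM, and *Fabp4*, a fatty acid binding protein, was at 6541 CPM in WT and 4894 CPM in *Ebf2* E165X/+ mice on average. *Fabp4* and *Retn*, the gene of resistin, had the lowest log2 fold changes of the list, both −0.42, and *Cidec*, a lipid droplet gene, and *Pck1*, a gene of glyceroneogenesis, the highest, at −0.15 and −0.02. Without mouse 3 they were at −0.26, −0.24, 0.05, and 0.12, so that the sign of *Cidec* and *Pck1* rested on that mouse. The summed CPM of the 10 enzymes was 3168, 3274, and 2824 in WT mice and 1990, 1862, and 1903 in *Ebf2* E165X/+ mice, a mean of 62.1% of the WT mean. Relative to the summed adipocyte markers it was 17.1%, 16.7%, and 16.3% in WT mice and 10.9%, 11.8%, and 16.4% in *Ebf2* E165X/+ mice. *Ebf2* E165X/+ mouse 3 lay within the WT range on this scale and the others of its genotype lay below it, so that the mean was 78.1% of the WT mean and the genotypes overlapped.

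**Figure D4:**
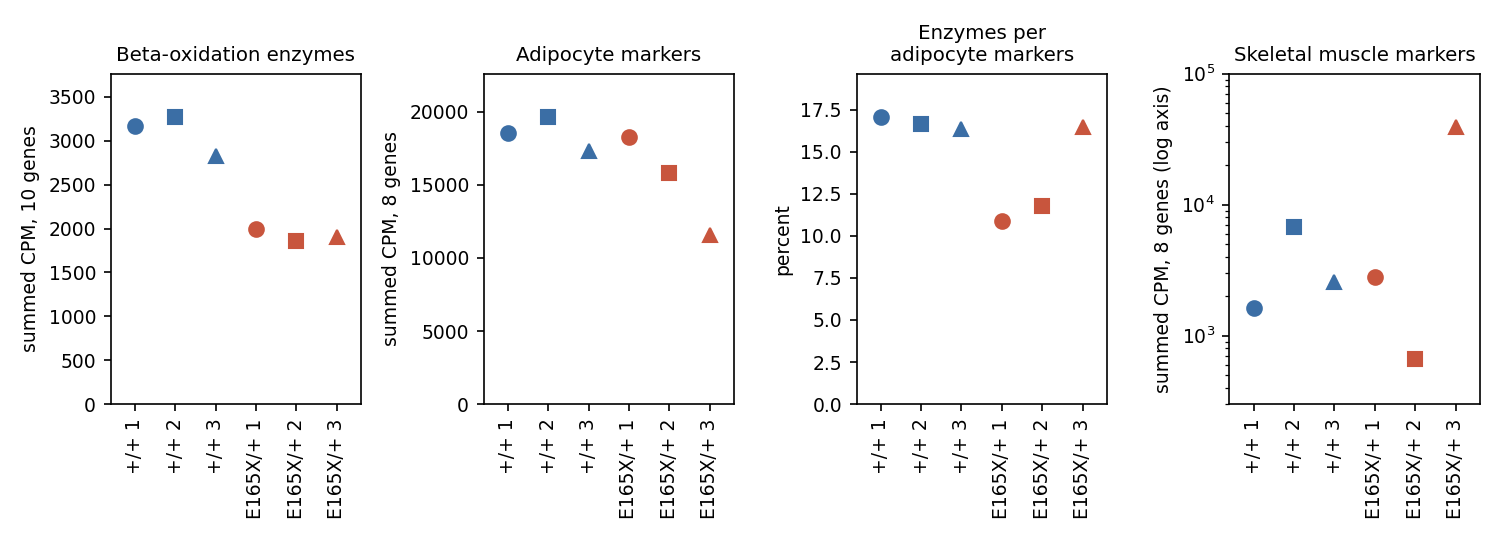
Summed CPM of the 10 beta-oxidation enzymes, summed CPM of the 8 adipocyte markers, the first as a percentage of the second, and summed CPM of the 8 skeletal muscle markers (log axis), 1 point per library, blue for *Ebf2*+/+ and red for *Ebf2* E165X/+. The enzymes separate the genotypes in CPM, and the third *Ebf2* E165X/+ library, with 39015 CPM of muscle markers, joins the WT libraries at 16.4% when they are set against the adipocyte markers.

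Taken one at a time against the adipocyte markers, 5 of the 10 enzymes stayed below WT in every *Ebf2* E165X/+ mouse, *Acadl*, *Hadhb*, *Hadh*, *Acaa2*, and *Eci1*. On the same scale 0.444% of the 18905 genes were lower in every *Ebf2* E165X/+ mouse. The mean difference of the enzymes on this scale ran from −0.67 for *Acaa2* to −0.17 for *Acads* on the log2 scale. For the other 5, *Acadvl*, *Acadm*, *Acads*, *Hadha*, and *Decr1*, the value of mouse 3 reached the WT range, and for *Hadha* it lay above every WT mouse. The part of the muscle RNA and of the lower adipocyte markers of that library in these values was not tested.

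Markers of brown and beige adipocytes, which are rich in beta-oxidation enzymes, were lower as well. All 8 were lower, 6 with an unadjusted edgeR *P* under 0.05 and 3 called by DESeq2 (*Ucp1*, *Cidea*, and *Otop1*), with a median of −1.28 and none at 0 in all libraries. Their summed CPM was 176, 225, and 219 in WT mice and 47.1, 52.1, and 87.7 in *Ebf2* E165X/+ mice, with *Cidea*, which encodes a lipid droplet protein, the gene with the highest CPM in WT mice. With all 6 mice, *Cidea* was the only gene of any list that edgeR called, with a log2 fold change of −3.24 (adjusted *P* = 0.00462), and *Ucp1*, the uncoupling protein of thermogenic fat, was at 10.8, 21.3, and 33.0 CPM in WT mice against 0.259, 0.264, and 0.617 CPM. Without *Ebf2* E165X/+ mouse 3, edgeR called *Ucp1* (adjusted *P* = 0.0132) as well as *Cidea* (0.000703), and the median of the 8 markers was −1.43. *Cox7a1*, a respiratory chain subunit also found in muscle, and *Prdm16*, a regulator of brown fat, had the smallest differences of the list, at −0.68 and −0.32. *Cox7a1* was measured at 12.5, 19.0, and 13.8 CPM in WT mice and at 4.14, 2.46, and 21.7 CPM in *Ebf2* E165X/+ mice, so that its value rested on mouse 3, without which it was −2.19 (edgeR adjusted *P* = 0.0997). The part of brown and beige adipocytes in the enzyme levels was not tested.

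Markers of other cell types of the depot were counted in the same way. The median log2 fold change was 0.11 for 6 macrophage markers, 0.34 for 6 lymphocyte and lymph node markers, 0.09 for 6 progenitor and fibroblast markers, −0.07 for 5 endothelial markers, and −0.27 for 5 epithelial markers. None of these genes had an unadjusted edgeR *P* under 0.05. The extremes were *Csf1r* and *Cd68* (0.07 and 0.10) and *Lyz2* and *C1qa* (0.13 and 0.16) for macrophages, and *Cd3e* and *Cd79a* (0.21 and 0.28) and *Ccl21a* (0.37) for lymphocytes. They were *Pdgfra* and *Pi16* (−0.03 and 0.01) and *Dpp4* and *Dcn* (0.17 and 0.25) for progenitors, and *Cdh5* and *Kdr* (−0.27 and −0.26) and *Vwf* and *Lyve1* (0.13 and 0.20) for endothelium. Of the epithelial markers, *Krt5*, *Cdh1*, and *Epcam* reached a mean of 1 CPM and were lower, with −2.08, −0.67, and −0.27, while *Krt8* and *Krt18*, below that mean, were at 2.36 and 1.27. *Krt5* ran from 0.0474 to 50.3 CPM within WT mice, and *Krt8* and *Krt18* were highest in *Ebf2* E165X/+ mouse 3, without which they were at 0.29 and −0.18. Without *Ebf2* E165X/+ mouse 3 the medians were 0.08 for macrophages, 0.36 for lymphocytes, 0.07 for progenitors, 0.0015 for endothelium, and −0.20 for epithelium. *Cdh5* and *Kdr* were then both at −0.13 and *Lyve1* at 0.06.

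The 7 markers of cardiac and slow muscle had a median of 1.85 and their sum was again highest in *Ebf2* E165X/+ mouse 3, at 699 CPM against 59.7 and 12.9 CPM in the others of its genotype and 73.5 ± 71.8 CPM in WT mice (SD, *n* = 3). *Tnnt1* and *Myh7*, genes of slow fibers, were at 1.71 and 1.75, and *Myl3* at 1.96. *Myh6*, a cardiac myosin heavy chain, was higher in every *Ebf2* E165X/+ mouse, at 1.17, 0.424, and 14.3 CPM against 0.0832, 0.218, and 0.186 CPM, with a log2 fold change of 5.03 (SE 1.33; edgeR adjusted *P* = 0.783, DESeq2 adjusted *P* = 0.0251), and 2.29 without mouse 3 (edgeR adjusted *P* = 0.422). Without that mouse the median of the 7 markers was −0.96, and 8 of 8 skeletal muscle markers were lower in *Ebf2* E165X/+ mice, 0 with an unadjusted *P* under 0.05, with a median of −1.07.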

How the data were processed

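The authors deposited expected counts, their estimates of fragments per gene, in 1 column per library without scaling, and 0 values were not whole numbers, so rounding changed none. The submitters' processing notes name cutadapt 4.8, FastQC 0.11.8, STAR 2.7.8a, RSEM 1.3.3, MultiQC 1.20, and the build GRCm38, without roles. The supplement of the paper names a 3′ mRNA kit and ENSEMBL 109, whereas the labels name a kit of another maker.

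Counts were analyzed in R 4.3.3 with edgeR 4.0.16 (TMM, glmQLFit, glmQLFTest, genotype as the only term) for the genes counted at least once in any library, with Benjamini-Hochberg adjustment over all 32664. DESeq2 1.42.0 and limma 3.58.1 (voom) were alternatives, with DESeq2 size factors, mitochondrially encoded genes left out, stricter filters, a replicate block, and each mouse left out. List values without *Ebf2* E165X/+ mouse 3 were added after seeing the data. The functions were tested on simulated data. With 3 mice per genotype, an exact permutation test cannot go below 0.1 and was not used. Ratios and sums were taken per library.

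The enzymes and the gene lists were chosen with earlier results of these data known. From each list, the 2 lowest and 2 highest log2 fold changes among genes with a mean of at least 1 CPM were named, with any gene called, except 2 genes that are not reported here. Genes called by DESeq2 within the lists, *Lpl*, *Adipoq*, *Gm3375*, *Gm5503*, *Krt8*, and *Krt18* were named after their values were seen. Likeness was Pearson's r over log2 CPM (prior count 2) among genes with a mean of at least 10 CPM. Positions and transcript lengths are from GENCODE M21, which held 55227 of the 55491 identifiers, and near copies are blastn 2.17.0 matches with 90% identity or more over 150 bases or more. Promoter windows are from RefSeq. *Dvl2* shares 1151 exonic bases with *Acadvl* on the opposite strand, and it held 1691 to 2349 counts, so that without knowledge of strand some reads of this pair are uncertain.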

Additional observations from a re-analysis of the deposited data

How the results depend on the processing

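In the alternative runs 0 of 151 log2 fold changes of the 10 enzymes reversed, and they ran from −1.04 to −0.41. The runs refit the same mice, and every *Ebf2* E165X/+ mouse was below every WT mouse for each enzyme. A reversal was thus hardly possible, and the count adds little on direction. Whether an enzyme passed a threshold depended on the tool. DESeq2 called 10 of 10 enzymes with and without independent filtering, among 185 and 157 genes, limma-voom called 1, and edgeR called 0 of 3 genes. Fits on 5 mice called 1 to 11 genes with edgeR and 0 enzymes each time, with 1 gene without WT mouse 2 and 11 without *Ebf2* E165X/+ mouse 3. The summed muscle markers were also used as a covariate, an alternative chosen after seeing the data. With this covariate edgeR called 20 genes and 3 enzymes, *Acaa2*, *Acadvl*, and *Eci1*. The median over the enzymes was then −0.69, and all 10 had an unadjusted *P* under 0.05, as 1848 of 32664 genes did in either direction. The sum of *Hadhb* with its copies was also chosen after seeing the data. Per adipocyte markers the summed enzymes were at 78.1% of WT and per mitochondrial content genes at 72.9%, instead of 62.1% in CPM. Both ratios depended on *Ebf2* E165X/+ mouse 3, in opposite directions. It was the highest of its genotype per adipocyte markers, at 16.4%, and the lowest per mitochondrial content genes, at 107%. With the replicate number as a block, edgeR called 2 genes and 0 enzymes, and adjusted *P* for the enzymes ran from 0.862 to 0.941. Their median was −0.68, and 10 of 10 kept an unadjusted *P* under 0.05, as 1281 of 32664 genes did in either direction. Deviations of same-numbered mice from their genotype means correlated at 0.153, −0.278, and −0.162 over 18905 genes. Those of different-numbered mice correlated at −0.317 to 0.395. With so few mice per genotype, these values cannot show whether the mice were paired. Each enzyme had at least 8969 counts in every library, so that counting error was small. Levels of transcripts do not give those of enzymes or the rate of oxidation.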

Other observations

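Among 10376 genes with a mean of at least 10 CPM, the 5 outside the 10 enzymes whose level over the 6 libraries was most like the mean of the enzymes were *Mcrip2*, *Etfdh*, *Slc25a20*, *Etfa*, and *Ebf2*, with Pearson's r from 0.994 to 0.988. The 6 points fall into the genotypes, so that r reflects the difference between genotypes as well as the spread within them, and no test was made. *Mcrip2* was at 21.6 CPM in WT and 12.1 CPM in *Ebf2* E165X/+ mice, with a log2 fold change of −0.84. *Etfa* and *Etfdh* serve the electron transfer from the acyl-CoA dehydrogenases, and *Etfa* was at 327 ± 12.1 CPM in WT and 234 ± 1.95 CPM in *Ebf2* E165X/+ mice.

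The *Ebf2* E165X/+ mice were closer to each other than the WT mice for several enzymes. On the log2 scale, the SD among the 3 mice was 0.023 for *Hadhb*, 0.019 for *Acadm*, and 0.040 for *Hadha* in *Ebf2* E165X/+ mice, against 0.077, 0.161, and 0.156 in WT mice. *Acadvl* and *Acadl* went the other way, with 0.093 and 0.182 in *Ebf2* E165X/+ mice against 0.081 and 0.108 in WT mice. With 3 mice each, the difference in spread was not tested.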
